A study of Sus scrofa with 3 samples.

Results

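The insulin-like growth factor (IGF) system was examined in visceral adipose tissue by its 10 core genes, which were 2 ligands (IGF1 and IGF2), 2 receptors (IGF1R and IGF2R) and 6 binding proteins (IGFBP1 to IGFBP6). They were taken by symbol from the 22826 genes that the deposited values class as mRNA, and all 10 were found. Of these, 7 were above 0 in every library, IGFBP1 was above 0 in 1 library, and IGF2 and IGFBP2 were listed at 0 in all libraries.

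IGF1 and IGF2 are small secreted proteins related to insulin. Both signal through IGF1R, a tyrosine kinase receptor that activates the PI3K-AKT pathway, whereas IGF2R binds IGF2 and carries it to lysosomes for degradation. The binding proteins hold the ligands in blood and tissue, extend their life and limit their access to the receptor, and proteases release the ligands again. Liver makes most of the circulating IGF1 under the control of growth hormone, and adipose tissue also makes IGF1, which acts on preadipocytes and other local cells.

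Pigs were male Chinese Wuzhishan miniature pigs, aged 6 to 7 months when obtained, and all groups ate the same high-fat and high-cholesterol (HFC) diet for 12 weeks. IM pigs were intact and received skin incisions only, CM pigs were castrated, and CMT pigs were castrated and injected intramuscularly each week with 10 mg/kg testosterone propionate in corn oil. No vehicle injection is described for IM or CM, so the testosterone and the injections with corn oil cannot be told apart. RNA from retroperitoneal fat was pooled within a group, from 4 pigs per the study's methods and from 4 to 6 pigs per the labels, and each pool became 1 library, sequenced from 1 end on an Ion Proton instrument.

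With 1 library for each group, none of the differences below could be set against a spread between replicates. Levels are given in UQRPKM. These are reads per kilobase of gene length, divided by the upper quartile of reads per gene and multiplied by a constant. Levels of different genes can thus be compared per length. Reads recovered from these values came to between 15106608 and 16611931 per library. Intervals are 95% intervals from the recovered reads (exact Poisson for a level, exact Clopper-Pearson for a ratio) and cover counting error only, not the variation between pigs. A gene was called higher or lower when its levels differed at least 1.5-fold and neither of them was under 1 UQRPKM. Each pair of comparisons shares a library, so an error in that library enters both, and the comparisons do not repeat one another. CM versus IM and CMT versus CM share the CM library, so a value that is low in CM by error gives opposite differences in them. A value that is high in CMT by error is higher in both comparisons with CMT, and the same holds for IM.

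The tissue label was checked against markers. The adipocyte marker ADIPOQ (adiponectin) stood at 74928, 69193 and 63873 UQRPKM in IM, CM and CMT. Liver genes were high in CM alone, where 17 hepatocyte markers summed to 10063 UQRPKM against 63.2 in IM and 58.3 in CMT. This list leaves out APOA1, which was high in all libraries. Skeletal muscle markers were high in CMT alone, with a sum over 12 genes of 7253 UQRPKM against 114 in IM and 97.3 in CM, although CKM and MB of that list were at 0 in all libraries. How this RNA came into the libraries was not tested, and the values that touch a member are repeated beside it.

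IGF1, the ligand made by both liver and fat, stood at 227 in IM, 161 in CM and 155 UQRPKM in CMT, on 377, 255 and 252 reads. It was highest in the intact pigs and nearly level in both castrated groups. The log2 ratio was -0.49 (interval -0.73 to -0.26) in CM versus IM, a 1.41-fold lower level, and -0.55 (-0.79 to -0.32) in CMT versus IM, a 1.47-fold lower level. Neither ratio reached the fold of 1.5, so IGF1 was not called changed. CMT versus CM gave -0.06 (-0.31 to 0.20), which includes equal levels and any difference up to those bounds. The 17 hepatocyte markers summed to 10063 UQRPKM in CM against 63.2 in IM and 58.3 in CMT. The part of liver RNA in the CM level of IGF1 was not tested. Of the 5411 mRNA genes that reached 100 UQRPKM in CM and in IM, 247 (4.56%) were lower in CM by as much as IGF1. Over all 14123 tested genes, which include those with few reads, the share was 13.7%. IGF1 stood at percentile 78.6 of the mRNA genes above 0 in IM, and at 73.3 in CM and 72.9 in CMT. In bulk tissue, fewer cells that make a transcript and less of the transcript per cell cannot be told apart.

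IGF2, the ligand with the main role in fetal growth, was listed at 0 in IM, CM and CMT. A listing at 0 in these files can be a failed estimate, because 5 of 61 genes with ribosomal protein symbols, which every cell uses, were also listed at 0 in all libraries (RPL7, RPL10, RPL37, RPL23 and RPL36A). In the RefSeq pig genome table, INS lies next to it and TNNT3 further off on the other side, and both were at 0 as well. The genes between TNNT3 and IGF2 had no values, and whether these zeros share a source was not tested. TNNT3 encodes a troponin of fast skeletal muscle and was at 0 even in CMT, where TNNC2, another fast-muscle troponin, stood at 904 UQRPKM. No limit on the level of IGF2 can be set, since no gene length can be read from a row of zeros.

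IGF1R, the signalling receptor, had the lowest level of the members above 0 in all libraries, at 50.3 in IM, 42.4 in CM and 51.1 UQRPKM in CMT. Its level was lowest in CM and close to equal in IM and CMT. The differences were small, with a log2 ratio of -0.24 (-0.49 to -0.002) in CM versus IM and 0.27 (0.03 to 0.51) in CMT versus CM. The 317, 255 and 316 reads behind these levels leave the near end of both intervals close to 0.

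IGF2R, the receptor that clears IGF2, stood at 260 in IM, 204 in CM and 209 UQRPKM in CMT. Like IGF1 it was highest in IM, and the castrated groups were nearly level. With 2190 to 2926 reads per library its intervals were narrow, at -0.35 (-0.43 to -0.27) in CM versus IM and 0.04 (-0.05 to 0.12) in CMT versus CM. IGF2R mRNA exceeded IGF1R mRNA 5.17-fold in IM, 4.81-fold in CM and 4.09-fold in CMT. INSR, the insulin receptor, which can pair with IGF1R in hybrid receptors, exceeded IGF1R 3.17-fold, 2.72-fold and 3.03-fold, with overlapping intervals in all libraries.

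**Figure D1:**
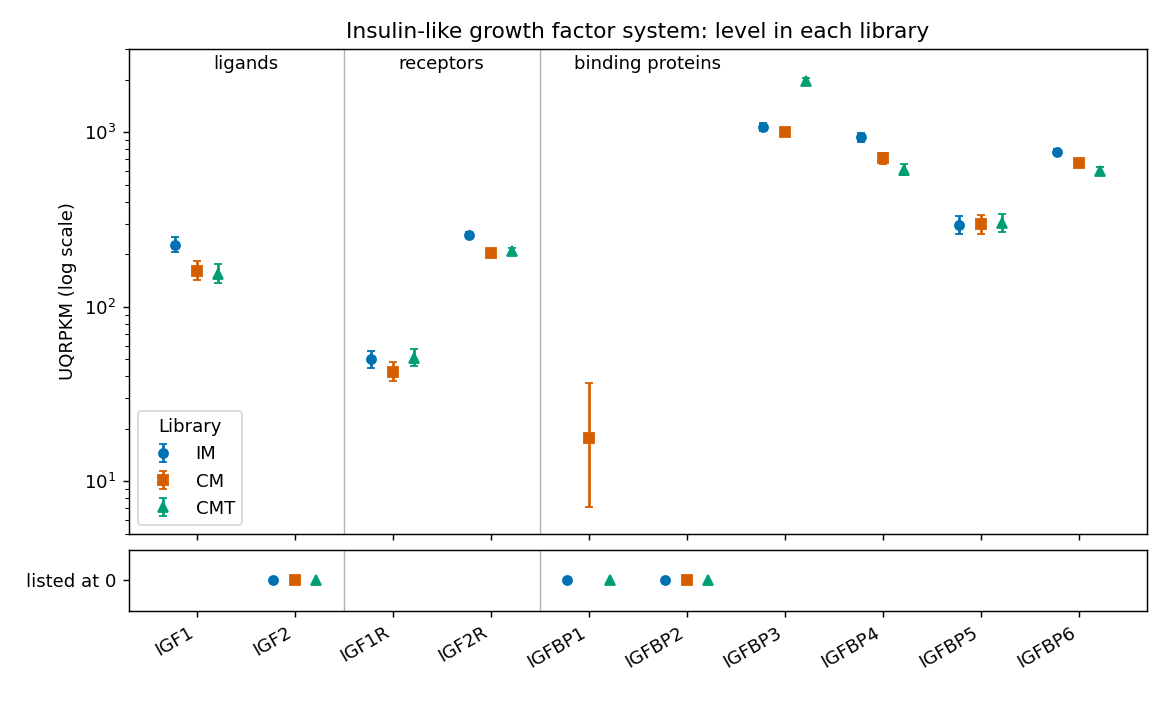
Level of each member in the IM (circles), CM (squares) and CMT (triangles) libraries, in UQRPKM on a log scale, with 95% counting intervals; members listed at 0 are in the lower strip. IGFBP3 was the most abundant member in every library and stood apart in CMT at 1962 UQRPKM, while IGF2 and IGFBP2 were at 0 throughout.

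IGFBP3, the main carrier of IGFs in blood and a product of stromal and endothelial cells, had the largest difference of the 7 members above 0 in all libraries. It stood at 1072 in IM, 1005 in CM and 1962 UQRPKM in CMT, on 1327, 1186 and 2380 reads. CMT lay far above both other libraries, whose intervals overlapped. IGFBP3 was called higher in CMT versus CM (1.95-fold, log2 ratio 0.96, 0.86 to 1.07) and in CMT versus IM (1.83-fold, 0.87, 0.77 to 0.97). CM versus IM gave -0.09 (-0.21 to 0.02).

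Few abundant genes differed by as much. Among 5327 mRNA genes that reached 100 UQRPKM in CMT and in CM, 24 (0.451%) were higher in CMT by at least the ratio of IGFBP3, itself included. Over all 14098 tested genes, which include those with few reads, the share was 4.36%. Markers of other cell types differed in the same library. The skeletal muscle list was high in CMT as given above, and the sum over 8 markers of mesothelium, the lining of the body cavity and its fat, went from 154 UQRPKM in IM to 267 in CM and 689 in CMT, with LRRN4 at 0 in all. Of 6 mesothelial genes tested in CMT versus IM, 5 were called higher and 1 lower. The stromal genes PDGFRA (288, 306 and 434 UQRPKM), DCN (11012, 11158 and 14747), LUM and DPP4 were also highest in CMT. The other stromal markers were not, with COL1A1, COL1A2 and THY1 highest in IM and COL3A1 and PI16 highest in CM. The sum of all 9 stromal markers was 76688, 74013 and 72193, and COL3A1 (43498, 46011 and 39816 UQRPKM) was its largest part. The summed endothelial markers were 9504, 8423 and 8882 UQRPKM. PECAM1 and TEK of that list were highest in CMT, whereas VWF, KDR, EGFL7 and CLDN5 were lowest in CMT. The part of these cells in the level of IGFBP3 was not tested.

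IGFBP4, a binding protein that inhibits IGF action and is cleaved by the protease PAPPA, was lowest in CMT. It stood at 938 in IM, 711 in CM and 611 UQRPKM in CMT, with intervals that did not overlap between any pair of libraries. The log2 ratio was -0.40 (-0.53 to -0.27) in CM versus IM and -0.22 (-0.37 to -0.07) in CMT versus CM. In CMT versus IM it was -0.62 (-0.76 to -0.48), a 1.53-fold lower level that was called. This call sits at the edge of the rule and was lost under each of 3 other scalings of the libraries, at log2 ratios between -0.57 and -0.53.

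IGFBP6, which binds IGF2 in preference to IGF1, stood at 771 in IM, 663 in CM and 605 UQRPKM in CMT. It had the order of IGFBP4 with smaller steps. The log2 ratio was -0.22 (-0.31 to -0.13) in CM versus IM, -0.13 (-0.23 to -0.04) in CMT versus CM and -0.35 (-0.44 to -0.26) in CMT versus IM, and none was called. IGFBP5, which binds to extracellular matrix, was the most even member at 295, 298 and 302 UQRPKM. Its log2 ratios lay between 0.01 and 0.03, and the widest of their intervals ran from -0.24 to 0.26 in CM versus IM, so a difference within those bounds was not detectable at 268 to 280 reads.

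IGFBP1, a binding protein made mainly by hepatocytes and lowered by insulin, was listed at 0 in IM and CMT and at 17.7 UQRPKM (7.10 to 36.4) in CM, on at least 7 reads. The level that 3 reads would give was 7.22 UQRPKM in IM and 7.36 in CMT. The CM level was 2.45-fold and 2.40-fold above these. The interval of the CM level includes both of them, so these folds are not lower bounds. The liver genes stood in the same library. All 17 hepatocyte markers were higher in CM than in either other library. Of these, 5 (APOA2, APOH, FGG, SERPINA1 and CPS1) shared the pattern of IGFBP1, with 0 in IM and CMT and 10.5 to 235 UQRPKM in CM. APOA1 was left out of the list for being high in all libraries, and it was not highest in CM (2539, 2339 and 1714 UQRPKM in IM, CM and CMT). IGFBP1 came to 0.176% of the summed level of the list in CM. Its source was not tested.

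Among the other genes of the system with a known hepatic source, IGF1, IGFBP4 and IGFALS had a lower level in CM than in IM. The intervals of IGFBP3 (log2 ratio -0.09) and of the growth hormone receptor GHR (0.03) in that comparison included equal levels. The part of liver RNA in these levels was not tested. IGF1 was 1.41-fold lower in CM than in IM, and IGFBP4 was also lower. IGFALS, the acid-labile subunit that liver secretes to form the complex with IGF1 and IGFBP3 in blood, stood at 26.7 UQRPKM in CM against 38.2 in IM and 48.3 in CMT. IGFBP2, made by liver and by adipocyte precursors, was listed at 0 in all libraries, so nothing can be said of it.

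**Figure D2:**
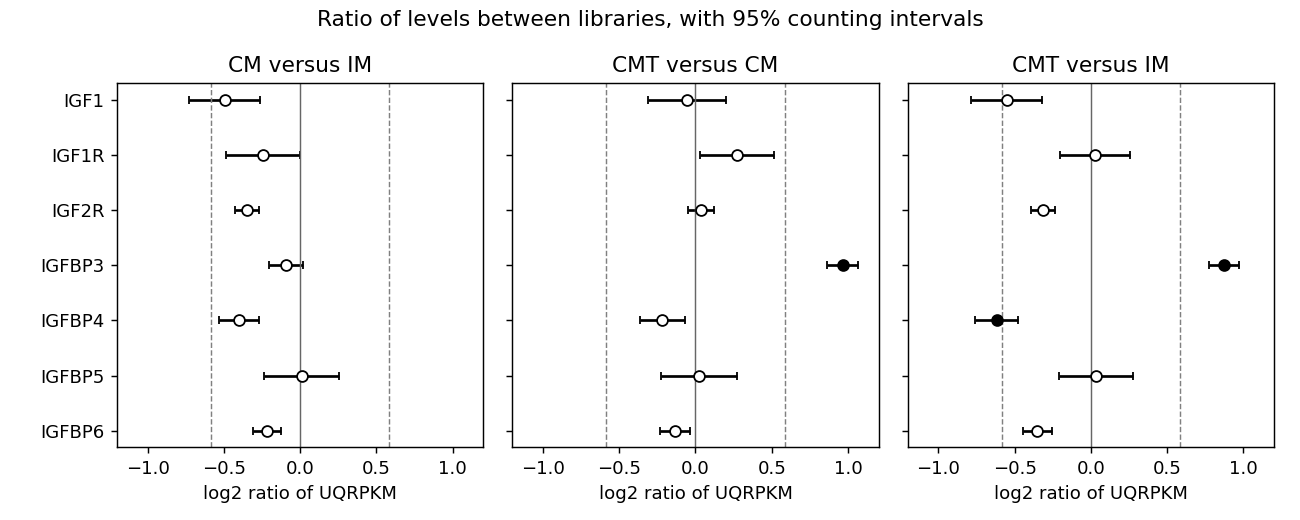
log2 ratio of UQRPKM of the 7 members above 0 in all libraries, with 95% counting intervals, in each of the 3 comparisons; dashed lines mark a fold of 1.5 and filled points are called. IGFBP3 lay to the right at 0.96 and 0.87 in both comparisons with CMT, and IGFBP4 crossed the line to the left in CMT versus IM alone.

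Counted over the 7 members tested, CM versus IM gave 0 called higher and 0 called lower, where 8.38% and 10.4% of the 14123 tested mRNA genes were called, 18.8% in all. The members' ratios nevertheless lay mostly below 0, with 6 of 7 lower in CM and a median log2 ratio of -0.24, against -0.06 over all tested genes. The counting interval excluded equal levels for 5 members, all lower in CM, where 26.6% of all genes were lower and 15.6% were higher by that rule. For IGF1R that interval ended at -0.002. Whether an interval excludes equal levels depends on the reads of a gene, and the tested genes include those with few reads. Such shares, here and in the comparisons below, are therefore not a like measure for the members.

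CMT versus CM gave 1 member called higher, IGFBP3, and 0 called lower, against 9.53% and 9.97% of the 14098 genes tested, 19.5% in all. The median log2 ratio was 0.02 for the members and -0.02 for all genes. Counting intervals excluded equal levels for 4 members, with IGF1R and IGFBP3 higher and IGFBP4 and IGFBP6 lower in CMT, against 17.3% higher and 21.1% lower over all genes.

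CMT versus IM gave 1 member called higher, IGFBP3, and 1 called lower, IGFBP4, against 8.81% and 11.9% of the 14151 genes tested, 20.7% in all. The median was -0.31 for the members and -0.08 for all genes. By the interval, IGFBP3 was higher and IGF1, IGF2R, IGFBP4 and IGFBP6 were lower in CMT, against 15% higher and 29.5% lower over all genes.

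The order of the members by level per length was nearly the same in all libraries. IGFBP3 led, IGFBP4 and IGFBP6 followed, then came IGFBP5, IGF2R and IGF1, and IGF1R was last of the members above 0 in all libraries. IGFBP4 and IGFBP6 had overlapping intervals in CM and CMT but not in IM. IGFBP5, IGF2R and IGF1 overlapped as neighbours in IM, whereas all of them were apart in CM and CMT.

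The makeup of the binding protein transcripts differed in CMT. Summed over IGFBP1 to IGFBP6, the level came to 3076 UQRPKM in IM, 2694 in CM and 3480 for CMT. IGFBP3 held 34.8% of this sum in IM, 37.3% in CM and 56.4% in CMT. IGFBP4 held 30.5%, 26.4% and 17.6%, and IGFBP6 held 25.1%, 24.6% and 17.4%.

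Ratios between genes within a library do not depend on the scaling of the library. The ratio of IGFBP3 to IGF1 was 4.71 (4.20 to 5.30) in IM, 6.23 (5.44 to 7.16) in CM and 12.6 (11.1 to 14.5) in CMT, and none of these intervals overlapped. The ratio of IGFBP4 to IGF1 was 4.13, 4.40 and 3.94, with overlapping intervals, while both transcripts were lower in CM and CMT than in IM. IGFBP3 exceeded IGFBP4 1.14-fold in IM, 1.41-fold in CM and 3.21-fold in CMT.

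**Figure D3:**
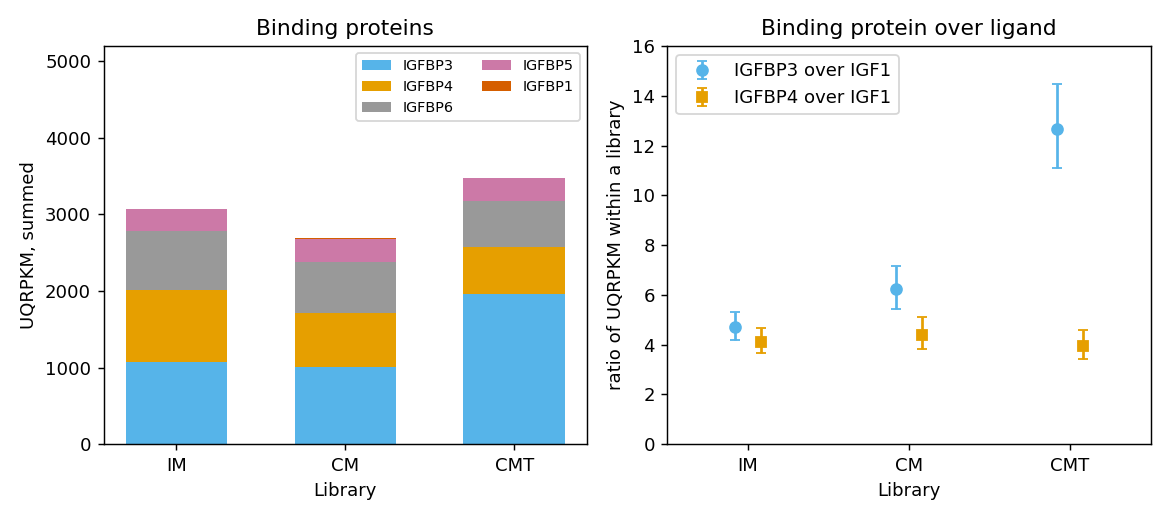
Left, UQRPKM of the binding proteins stacked for each library (IGFBP2 is at 0 and IGFBP1 is above 0 in CM alone); right, the ratio of IGFBP3 and of IGFBP4 to IGF1 within each library with 95% counting intervals. The CMT column was the tallest through IGFBP3, and the ratio to IGF1 reached 12.6 for IGFBP3 but stayed between 3.94 and 4.40 for IGFBP4.

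Genes whose pattern over the 3 libraries lay nearest to a member were searched over the 11142 mRNA genes that reached 10 UQRPKM in every library, by the Euclidean distance of centred log2 values. The nearest to IGF1 were VASH1 (139, 98.1 and 94.3 UQRPKM), GPN2 and CLSTN1, and 241 genes lay within a distance of 0.1. The nearest to IGFBP3 were LOC100521657, ANGPTL1, an angiopoietin-like secreted protein (179, 174 and 336 UQRPKM), and LOC100736679, with 18 genes within 0.1. Likeness over 3 libraries is a description of these values and rests on few points.

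Around the members, 42 genes of the wider pathway were followed, of which 39 were found in the files. In CM versus IM, 0 were called higher and 6 lower of 34 tested, where 8.38% and 10.4% of all tested genes were called, and the median log2 ratio was -0.31 against -0.06 over all genes. In CMT versus CM, 3 were called higher and 4 lower of 35 tested, against 9.53% and 9.97% of all genes, with a median of 0.05 against -0.02. In CMT versus IM, 0 were called higher and 4 lower of 34, against 8.81% and 11.9% of all genes, with a median of -0.19 against -0.08. The 4 called lower there are a share near that of all genes.

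Growth hormone signalling drives transcription of IGF1 through its receptor GHR, the kinase JAK2 and the factors STAT5A and STAT5B. GHR differed little, at 1864 in IM, 1897 in CM and 1772 UQRPKM in CMT. STAT5A stood at 309, 193 and 125 UQRPKM and was called lower in all 3 comparisons, with a log2 ratio of -1.31 (-1.56 to -1.07) in CMT versus IM. It was the 1 gene of 7 tested in this group that was called. CISH, a STAT5 target that inhibits cytokine receptors, stood at 541, 366 and 501 UQRPKM and fell short of the fold of 1.5 in each comparison. SOCS3 was listed at 0 in all libraries.

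IGFALS, the partner of IGFBP3 in the blood complex, was called higher in CMT versus CM (1.80-fold, log2 ratio 0.85, 0.44 to 1.27). Of the proteases that cleave binding proteins, the pappalysins rested on few reads. PAPPA, which cleaves IGFBP4, rested on 44, 26 and 27 reads at 4.44, 2.76 and 2.78 UQRPKM, and its calls as lower in CM and in CMT versus IM had intervals that included equal levels. PAPPA2, which cleaves IGFBP3 and IGFBP5, was called higher in CMT versus CM at 5.64 against 2.77 UQRPKM, on 46 and 22 reads (log2 ratio 1.02, 0.26 to 1.83). HTRA1, a secreted serine protease, was abundant at 1400, 1109 and 1463 UQRPKM and was not called. STC2, an inhibitor of PAPPA, was called lower in CMT versus CM, but on 22 and 35 reads with an interval that included equal levels. IGFBP7, a related protein that binds IGFs weakly, exceeded every member at 7492, 5628 and 6392 UQRPKM and was not called.

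Of the receptor substrates and adaptors, GRB10, which binds IGF1R and the insulin receptor and dampens their signal, stood at 608 in IM, 335 in CM and 618 UQRPKM in CMT. It was called lower in CM versus IM (log2 ratio -0.86, -0.97 to -0.75) and higher in CMT versus CM (0.88, 0.78 to 0.99), and its interval in CMT versus IM included equal levels (log2 ratio 0.02, -0.06 to 0.11). INSR was also lowest in CM, at 159, 116 and 155 UQRPKM, and was not called. IRS1, the main docking protein of both receptors, stood at 72.8, 68.5 and 76.6 UQRPKM and was not called. The calls of INSRR in CMT versus IM and of GRB14 in CMT versus CM, both lower, rested on at most 22 reads in a library and had intervals that included equal levels.

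In the PI3K-AKT-FOXO group, 3 of 10 genes were called lower in CM versus IM, where 10.4% of all tested genes were. PIK3R1, the regulatory subunit of PI3K, stood at 34.5, 13.2 and 18.6 UQRPKM and had the largest difference of the 3, at a log2 ratio of -1.38 (-1.72 to -1.06). The transcription factors FOXO1 (415, 265 and 358 UQRPKM) and FOXO3 (361, 227 and 266), which AKT holds out of the nucleus, were 1.57-fold and 1.59-fold lower in CM than in IM. AKT2, the main AKT of insulin-responsive tissue, stood at 2132, 2681 and 1647 UQRPKM and was called lower in CMT versus CM (log2 ratio -0.70, -0.74 to -0.66).

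**Figure D4:**
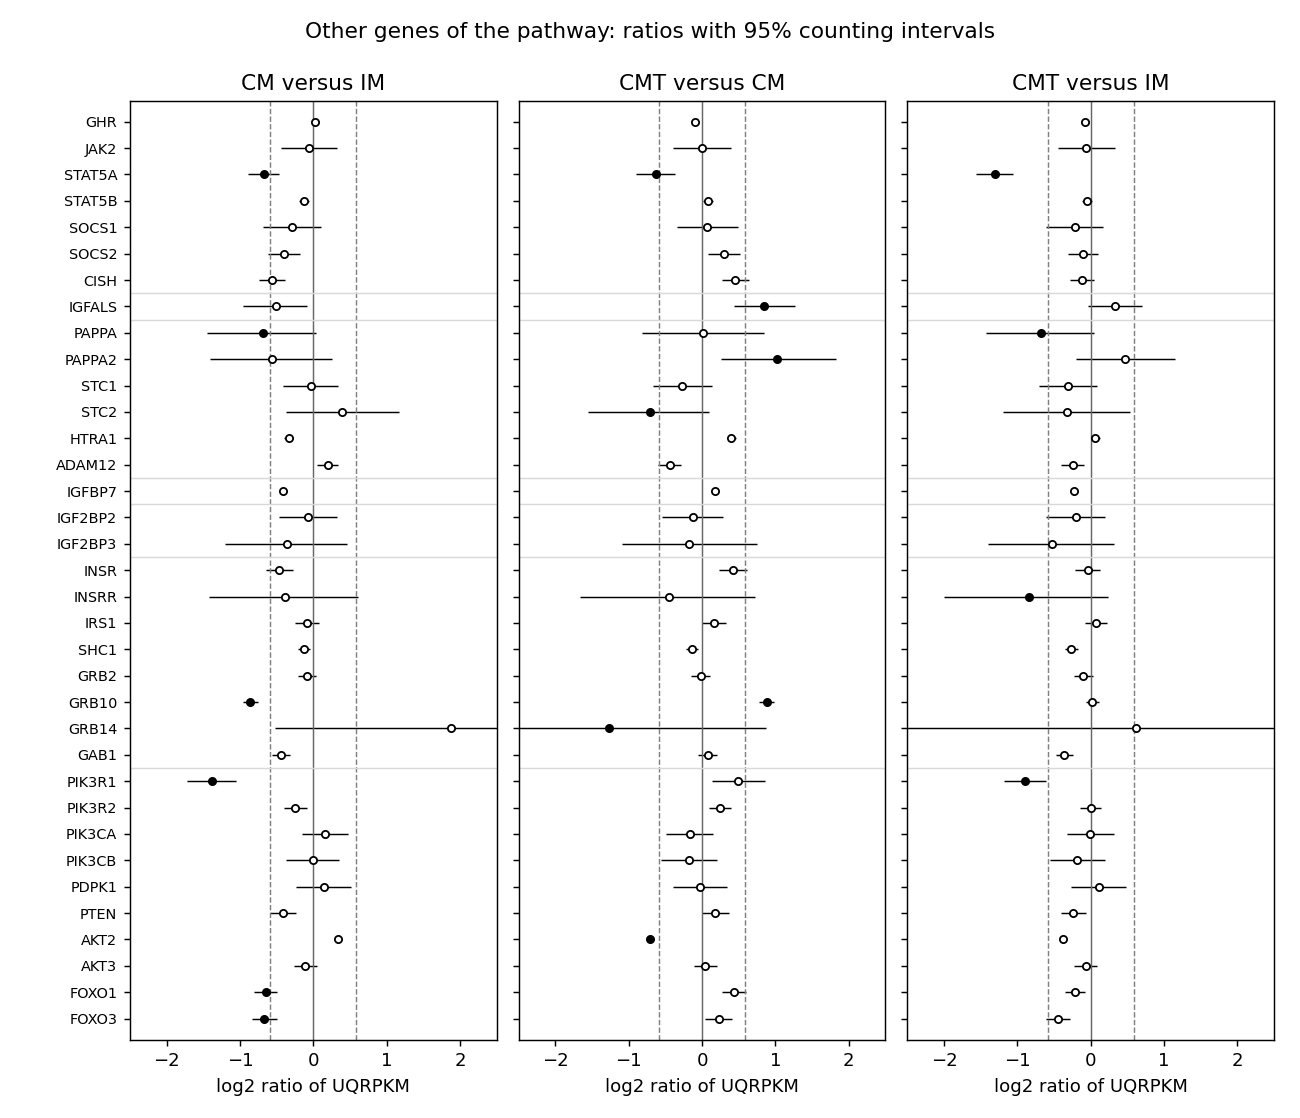
log2 ratio of UQRPKM of the other pathway genes above 0 in all libraries, with 95% counting intervals, in each comparison; grey lines part the groups of genes, dashed lines mark a fold of 1.5, filled points are called, and the intervals of GRB14 run past the axis. GRB10, FOXO1, FOXO3 and PIK3R1 lay to the left in CM versus IM, and STAT5A lay to the left in all 3 panels.

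Other cell types differed less than liver, muscle and mesothelium. Summed markers of macrophages were 7275, 6076 and 5736 UQRPKM in IM, CM and CMT with CD163 at 0 in all libraries, and those of smooth muscle and pericytes were 6390, 5009 and 4759 with MYH11 at 0. Both sums had the order of IGFBP4 and IGFBP6, highest in IM and lowest in CMT. The macrophage sum rests mostly on the complement genes C1QA and C1QC, which had that order, as did CSF1R (285, 246 and 221 UQRPKM). The complement gene C1QB ran the other way (763, 871 and 896 UQRPKM), and other genes of that list had another order still. LOC100520753, named CD68 in the study (17.2, 42.9 and 22.2 UQRPKM), and EMR1 (45.6, 93.6 and 30.6 UQRPKM) were called higher in CM versus IM and lower in CMT versus CM. The smooth muscle and pericyte sum rests mostly on ACTA2 and TAGLN, and of that list only these had the order of the sum. CNN1 and PDGFRB were lowest in CM, and RGS5 was highest in CM. The adipocyte sum had the order of IGFBP4 and IGFBP6 too, at 133846, 124883 and 108277 UQRPKM. ADIPOQ is the largest part of that sum, and of the list only ADIPOQ and LIPE had this order. PLIN1, CIDEC and LEP were highest in CM, CFD was highest in CMT, and PNPLA2 was lowest in CM. The T cell sum was 450, 375 and 450 UQRPKM. Whether these cells take part in the lower levels of the members was not tested.

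**Figure D5:**
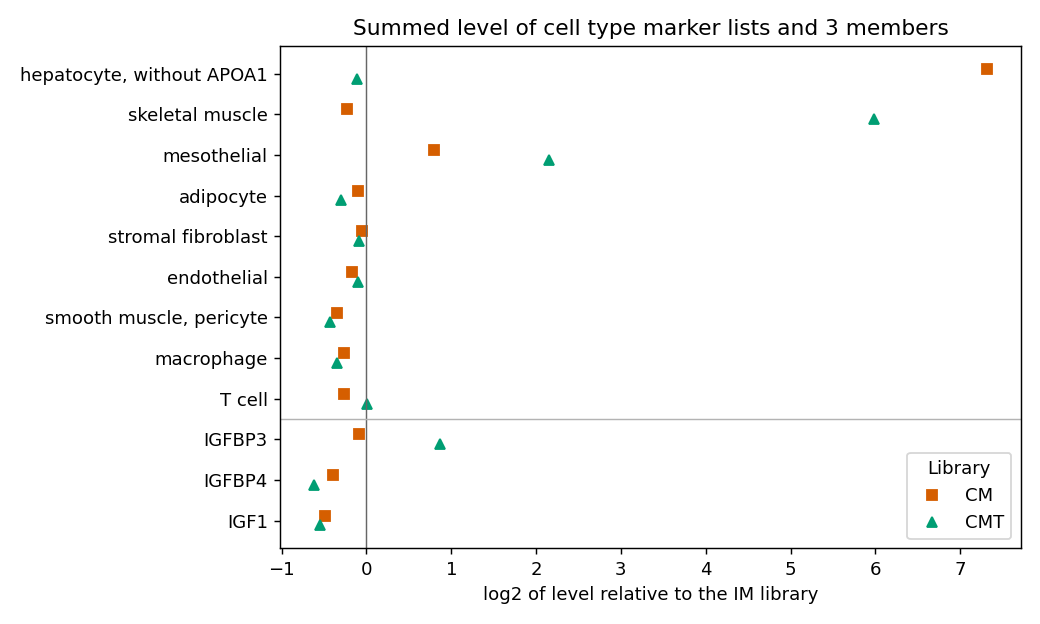
log2 of the summed UQRPKM of each cell type marker list in CM (squares) and CMT (triangles) relative to IM, above the same measure for IGFBP3, IGFBP4 and IGF1. The hepatocyte list stood apart in CM and the muscle and mesothelial lists in CMT, while the other lists lay within the range of the members.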

How the data were processed

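The authors filtered the single-end reads, mapped them to the pig genome (build Sscrofa 10.2) with MapSplice and deposited RPKM values scaled by the upper quartile (UQRPKM), 1 value per gene and library. The counting tool and annotation are not given in the sources used here. Columns of the deposited values were used as they stand, with no filter other than the minimum of the rule. Whole reads were recovered from the RPKM steps for 100% of 20838 genes above 0 (relative tolerance 1e-08), with the smallest gene length that gave whole reads in all libraries, so reads can be too low by a common factor and intervals too wide. The recovery was tested on simulated data.

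Libraries were assigned to groups by their labels, and 3 comparisons were made. With 1 library per group no test was made, and the rule (1.5-fold, at least 1 UQRPKM) was the study's without its test. Named genes were all members, 5 pathway genes fixed by name (GHR, IGFALS, PAPPA, INSR and IRS1), pathway genes called with an interval that excluded equal levels, and the 3 nearest in pattern to IGF1 and IGFBP3. Other pathway genes and markers were named as examples after their values were seen. Members and lists were chosen with earlier results of these data known. Pathway symbols matched in 34 of 42 cases, 4 genes matched by NCBI gene ID (HTRA1, ADAM12, IRS4 and PIK3R1), PAPPA was taken from the spelling PAPP-A, and IGFLR1, IRS2 and AKT1 were not matched. APOA1 was left out of the hepatocyte list because it was high in all libraries (2539, 2339 and 1714 UQRPKM). Neighbouring genes come from the RefSeq table of Sscrofa 11.1, another build, so no coordinates are given. Python 3.11.15, numpy 2.4.6, pandas 2.3.3, scipy 1.17.1 and matplotlib 3.10.9 were used.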

Additional observations from a re-analysis of the deposited data

How the results depend on the processing

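Of the counts of called members and pathway genes, 61 of 72 values under the alternatives stayed within 1.5 times the count reported, and 11 did not. The 61 include counts that stayed at 0, those of members in CM versus IM and of members lower in CMT versus CM. A stricter rule cannot raise a count of 0, so the tally overstates how firm the counts are. A fold of 2 left 0 members called higher in CMT versus CM, and 0 higher and 0 lower in CMT versus IM. It left 1 pathway gene called for castrated against intact pigs (CM versus IM), 2 for CMT versus CM and 1 for CMT versus IM. The call of IGFBP4 as lower in CMT versus IM, the 1 member called lower, was lost (0) under scaling to total UQRPKM, to the median ratio, and to total UQRPKM without the 1216 genes listed at least 10-fold higher in 1 library (others at 0 included), an alternative chosen after seeing the data. Pathway calls in CMT versus IM came to 2 with a minimum of 10 UQRPKM and to 2 when the counting interval also had to exclude equal levels. No log2 ratio of a member changed sign with a pseudocount of 1 UQRPKM or another scaling, and the largest move was 0.0836, while that of IGF2R in CMT versus IM went to -0.23 under the median ratio. The call of IGFBP3 as higher was lost at the fold of 2 and at no other alternative run. No paired analysis was possible because each group is 1 library, and for the same reason no replicate could be left out. Depth limits IGFBP1, PAPPA, PAPPA2 and STC2, which rest on under 50 reads in each library.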

Other observations

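IGFBP1 and IGFBP3 are neighbours in the pig genome, and their values differed in different libraries. IGFBP1 was above 0 in CM alone, whereas IGFBP3 was called higher in CMT alone. The next genes on the side of IGFBP3, TNS3 (360, 401 and 295 UQRPKM in IM, CM and CMT) and MRPS24 (638, 714 and 660), were not highest in CMT. On the side of IGFBP1, RAMP3 (20.1, 21.1 and 37.9 UQRPKM) and ADCY1 (1.10, 0.575 and 2.42) were highest in CMT, as IGFBP3 was. IGFBP2 and IGFBP5 are neighbours as well, and IGFBP2 was listed at 0 where IGFBP5 stood at 295, 298 and 302 UQRPKM.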
